A study of Mus musculus with 11 samples.

Results

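The 9 genes described here belong to the BCL2 family, which decides whether a cell keeps or opens its mitochondria to apoptosis. They were chosen by name from the 31053 genes counted in each library: Bcl2, Bcl2l1, Bcl2l2, Mcl1, Bcl2a1b and Bcl2a1d, which protect cells, Bcl2l11 and Bid, which trigger death, and Bak1, which carries it out. Lungs of mice were dissociated, red cells were lysed, and all remaining cells were profiled by droplet-based 3′ RNA sequencing in 11 libraries. Each library is taken here as 1 replicate, since the labels do not say how many animals went into it; p-values therefore measure the spread between libraries. The groups were 1 wild-type (+/+) library (WT), 3 libraries labelled p21 heterozygote (+/-; p21Het), 5 labelled p21 mTert (+/mTert; p21mTert) and 2 labelled p21 mTertCD (+/mTertCD; p21mTertCD). As these labels write it, every group other than WT carries 1 changed p21 allele, p21 being the protein of Cdkn1a, a brake on the cell cycle; mTert names the mouse telomerase gene, and the labels do not spell out CD. The age labels are 18 months except for p21Het_1 (19 months) and p21mTert_1 (20 months), whose titles also read 18 months. WT_1, p21Het_1 and p21mTert_1 were labelled in another form than the other 8 libraries, and are called the first label set below.

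Guardian proteins such as BCL2, BCL-XL (from Bcl2l1), BCL-W (Bcl2l2), MCL1 and A1 (the Bcl2a1 genes) hold the pore-forming proteins BAX and BAK in check at the outer mitochondrial membrane. BH3-only proteins such as BIM (Bcl2l11) and BID sense stress or death-receptor signals and bind the guardians or the pore formers, after which cytochrome c leaves the mitochondria and caspases are activated. Different blood and tissue cells are known to lean on different guardians: lymphocytes on BCL2, neutrophils on MCL1 and A1, and red cell precursors on BCL-XL.

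On GRCm38 (GENCODE M21, all protein-coding) the guardians lie at chr1:106538178-106714274 (Bcl2, minus strand), chr2:152780668-152831728 (Bcl2l1, minus), chr14:54883377-54888234 (Bcl2l2, plus), chr3:95658788-95663176 (Mcl1, plus), chr9:89199209-89207827 (Bcl2a1b, plus) and chr9:88723285-88731914 (Bcl2a1d, minus). The pro-death genes lie at chr2:128126038-128162547 (Bcl2l11, plus), chr6:120891930-120916853 (Bid, minus) and chr17:27019810-27029009 (Bak1, minus).

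The A1 genes are near copies on chromosome 9, and this bears on what their counts mean. Over 817 aligned bases the reference transcripts of Bcl2a1b and Bcl2a1d are 99.1% identical. Of the 50-base words in the last 300 bases, where 3′ reads fall, 74.1% of those of Bcl2a1b and 94.8% of those of Bcl2a1d also occur in another A1 gene. Whether reads from shared words were dropped or counted for 1 gene is not known here. Their levels are therefore given side by side and lineages are ordered within each gene. Their upstream stretches are shown because both genes had like profiles over the lineages (Pearson's r = 0.96). Each is 5′ to 3′ on the gene's own strand (GRCm38.p6, RefSeq) and ends before the annotated transcript starts; capitals mark GAGGAAGT, a motif of the PU.1 type, PU.1 being a transcription factor of myeloid and B cells.
Bcl2a1b, chr9:89199023-89199164, plus strand: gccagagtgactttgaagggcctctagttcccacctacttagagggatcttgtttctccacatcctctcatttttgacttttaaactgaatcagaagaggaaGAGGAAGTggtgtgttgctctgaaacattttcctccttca
Bcl2a1d, chr9:88731915-88732050, minus strand: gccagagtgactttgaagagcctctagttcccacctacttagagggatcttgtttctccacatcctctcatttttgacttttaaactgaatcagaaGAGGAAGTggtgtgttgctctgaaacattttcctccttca
Over the stretch that their 250-base windows before the RefSeq starts share, the pair aligned with 198 identical bases, 2 mismatches and 6 gapped positions. The motif, searched on both strands, occurred in 2.44% of 32817 such windows, and all 9 members had at least 1 window. Among the other members it was found in Bak1 alone, on the minus strand. A pattern of the NF-kappaB type (GGG, any 2 bases, then TTTCC, which overlapped no match of the first), occurred in 1.41% of windows, and among the members in those of Mcl1 and of 1 of 3 Bcl2l1 starts. These matches describe letters and say nothing of binding.

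Barcodes with 1000 to 30000 UMIs (unique molecular identifiers, each counting 1 captured RNA molecule) and at most 14% mitochondrial UMIs were kept, which left 69267 of 81983. Libraries held 42038434 to 85988955 UMIs in all. Cells were assigned to 21 lineages by counting which marker genes of each lineage they held (8 per lineage, 7 of them counted for the erythroid one), and 86.2% of kept cells passed 1 gate; names end in "-like" because they rest on RNA alone. Genes outside the marker lists were read as a check of the gates. Ptprc, the leukocyte antigen CD45, stood at 2153 CPM (UMIs scaled to a common library total, defined below) in neutrophil-like and 18.6 in general capillary endothelial (gCap)-like cells. Cdh5 of endothelial junctions was at 1930 in gCap-like and 5.25 in alveolar type 2 (AT2)-like cells. Epcam, an epithelial antigen, was at 151 in AT2-like and 2.54 in gCap-like cells. The check was less clear in other gates. Epcam was at 106 in conventional dendritic-like, 38.0 in alveolar macrophage-like and 33.5 in plasma-like cells, and Cdh5 at 171 in plasmacytoid dendritic-like cells. In 17 lineages at least 6 libraries had 20 or more cells, and every order of lineages given here is over these 17; AT1-like, basophil-like, plasmacytoid dendritic-like and mural-like cells had too few libraries and are not ranked. Levels are counts per 1e+06 UMIs (CPM), from the UMIs summed over a library's cells of a lineage, given as mean ± SD over libraries. A 3′ UMI count is not scaled by length and capture differs between genes, so only lineages and groups are compared, each within 1 gene. Median mitochondrial shares were 6.30% to 6.58% in the first label set and 2.82% to 4.28% in the other libraries.

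Tert and Cdkn1a were read first as a check of the labels. Over all kept cells Tert was at 1.13 CPM in WT, between 0.544 and 0.842 in p21Het, between 2.00 and 3.28 in p21mTert and between 1.90 and 2.59 in p21mTertCD, from 27 to 188 UMIs per library. The libraries labelled with an mTert allele were thus all above the others. Cdkn1a ranged from 118 to 187 CPM with overlapping groups. It was at 155 in WT and at 136, 183 and 187 in p21Het, so its level did not set the changed p21 labels apart from WT.

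Among the guardians, Mcl1, a short-lived protein that cells must keep making, was highest in neutrophil-like cells (2221 ± 443 CPM, n = 11). It was lower in classical monocyte-like cells (999.8 ± 212) in all 11 libraries. Interstitial macrophage-like cells (856), non-classical monocyte-like cells (822), conventional dendritic-like cells (736) and alveolar macrophage-like cells (701) followed, and none of these neighbours in the order held its place in every library. All 6 myeloid lineages lay above B-like cells (469.5 ± 78.5), and alveolar macrophage-like cells did so in 11 of 11 libraries. From gCap-like cells (423) down to ciliated-like cells (240.4) the means differed little from neighbour to neighbour. Club-like cells stood at 112 and erythroid-like cells at 18.0 ± 12.8 (n = 8), the lowest of the 17 lineages.

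After thinning every cell to 1000 UMIs, 85.9% ± 5.43 (n = 11) of neutrophil-like cells held an Mcl1 UMI, against 26.1% of T-like and 2.13% of erythroid-like cells. Without thinning the shares were 99.3%, 79.0% and 6.49%, at median depths of 3775, 6023.5 and 4570.5 UMIs. Neutrophil-like cells gave 16.3% ± 9.49 of all Mcl1 UMIs from 4.44% of all UMIs. Their share of Mcl1 therefore exceeded their share of RNA in this mean over libraries.

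Bcl2 itself followed another order. NK-like (470.2 ± 121 CPM) and T-like cells (444 ± 124) led it, and their order changed from library to library. T-like cells were above the next lineage in 11 of 11 libraries, and that was non-classical monocyte-like cells (140.3 ± 19.8), with B-like cells (136 ± 24.3) close behind. Plasma-like cells (64.0 ± 14.2, n = 7 libraries) came next, below B-like cells in CPM in 7 of 7 libraries. That difference was not called in the test between these 2 lineages given below, which scales libraries otherwise. Stromal and vascular lineages followed, with aerocyte capillary endothelial (aCap)-like cells at 61.0, fibroblast-like cells at 50.4 and gCap-like cells at 35.7. AT2-like cells (7.51), conventional dendritic-like cells (7.99) and classical monocyte-like cells (10.9) were low. Alveolar macrophage-like cells (1.99 ± 0.594) held the lowest level outside the erythroid gate, between 1.27 and 3.01 CPM in all 11 libraries.

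T-like cells contributed 59.1% ± 10.0 of all Bcl2 UMIs while holding 17.0% of all UMIs. No other lineage contributed as large a share of any member. Thinned to 1000 UMIs, 37.2% of NK-like and 28.8% of T-like cells had a Bcl2 UMI, against 0.198% of alveolar macrophage-like and 0.0541% of erythroid-like cells (unthinned 78.4%, 66.3%, 2.81% and 0.468%).

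Bcl2l1, whose long form BCL-XL keeps red cell precursors and platelets alive, was highest in endothelial and erythroid-like cells among the 17 ranked lineages. In the unranked AT1-like cells (n = 5) a Bcl2l1 UMI was found in 12.5% of thinned cells, beside 12.4% of gCap-like and 10.9% of erythroid-like cells. It stood at 148 ± 37.4 CPM in aCap-like cells (n = 10), 127 ± 24.0 in gCap-like cells and 114 ± 32.9 in erythroid-like cells (n = 8). Ciliated-like (67.4), fibroblast-like (64.5) and AT2-like cells (46.5) formed a middle range, joined by both macrophage lineages (38.5 alveolar, 38.2 interstitial). Classical monocyte-like (5.64), B-like (4.81) and plasma-like cells (3.65) were lowest. Fibroblast-like cells exceeded AT2-like cells in 11 of 11 libraries, whereas ciliated-like and fibroblast-like cells changed places.

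For the erythroid gate Bcl2l1 was an exception among the members. The other 8 had their lowest or second lowest mean there, from 0.108 CPM (Bid) to 18.0 (Mcl1). Haemoglobin genes (Hbb-bt, Hbb-bs, Hba-a1 and Hba-a2) were among those that most set this gate apart. In the genotype fits below 788 genes passed the filter on low counts there, against 6047 to 12202 in the other lineages. The share of all genes that ranked as low in this gate was not computed. Bcl2l1 was found in 10.9% of thinned erythroid-like cells, beside 2.13% for Mcl1 and at most 0.311% for the other members.

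Bcl2l2 was sparse everywhere. Its means were 22.4 CPM in aCap-like, 21.8 in AT2-like, 21.6 in fibroblast-like and 21.2 in gCap-like cells, which could not be ordered. Alveolar macrophage-like cells had 14.3 ± 3.25, and neutrophil-like cells 1.34 ± 1.007.

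A1, which inflammatory signals are known to induce in blood cells, was highest in dendritic-like, macrophage-like and non-classical monocyte-like cells. Bcl2a1b stood at 434 ± 76.95 CPM in conventional dendritic-like, 410.0 ± 80.8 in interstitial macrophage-like, 320.2 ± 64.3 in non-classical monocyte-like and 204 ± 67.5 in alveolar macrophage-like cells. Conventional dendritic-like cells were above interstitial macrophage-like cells in 7 of 11 libraries only. T-like (160.1), B-like (141) and neutrophil-like cells (132) formed the next step, and NK-like cells had 67.2. Classical monocyte-like cells, at 18.0 ± 7.03, had the lowest level of the 6 myeloid lineages. Bcl2a1d had 196 CPM in conventional dendritic-like, 128 in non-classical monocyte-like, 66.6 in interstitial macrophage-like and 8.96 in classical monocyte-like cells. Interstitial macrophage-like cells were above non-classical monocyte-like cells in 11 of 11 libraries for Bcl2a1b and below them in 11 of 11 for Bcl2a1d.

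Among non-leukocytes AT2-like cells had the highest Bcl2a1b level, 28.3 ± 10.8 CPM, above classical monocyte-like cells in 8 of 11 libraries. Fibroblast-like (3.04), ciliated-like (5.48) and gCap-like cells (5.75) were near the bottom. Thinned shares with a UMI were 2.24% in AT2-like cells against 0.175% in fibroblast-like and 0.421% in gCap-like cells. Unthinned they were 20.9%, 1.19% and 1.04% at median depths of 18565, 8398 and 3627.5 UMIs. Ptprc in AT2-like cells, at 13.9 CPM, was below its 18.6 in gCap-like cells. The summed level of the 8 alveolar macrophage markers in AT2-like cells averaged 283 CPM, against 25813 in alveolar macrophage-like cells, none of the 8 was at 0 in every library and 3 were under 1 CPM. The part of macrophage RNA in the AT2 level was not tested.

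**Figure D1:**
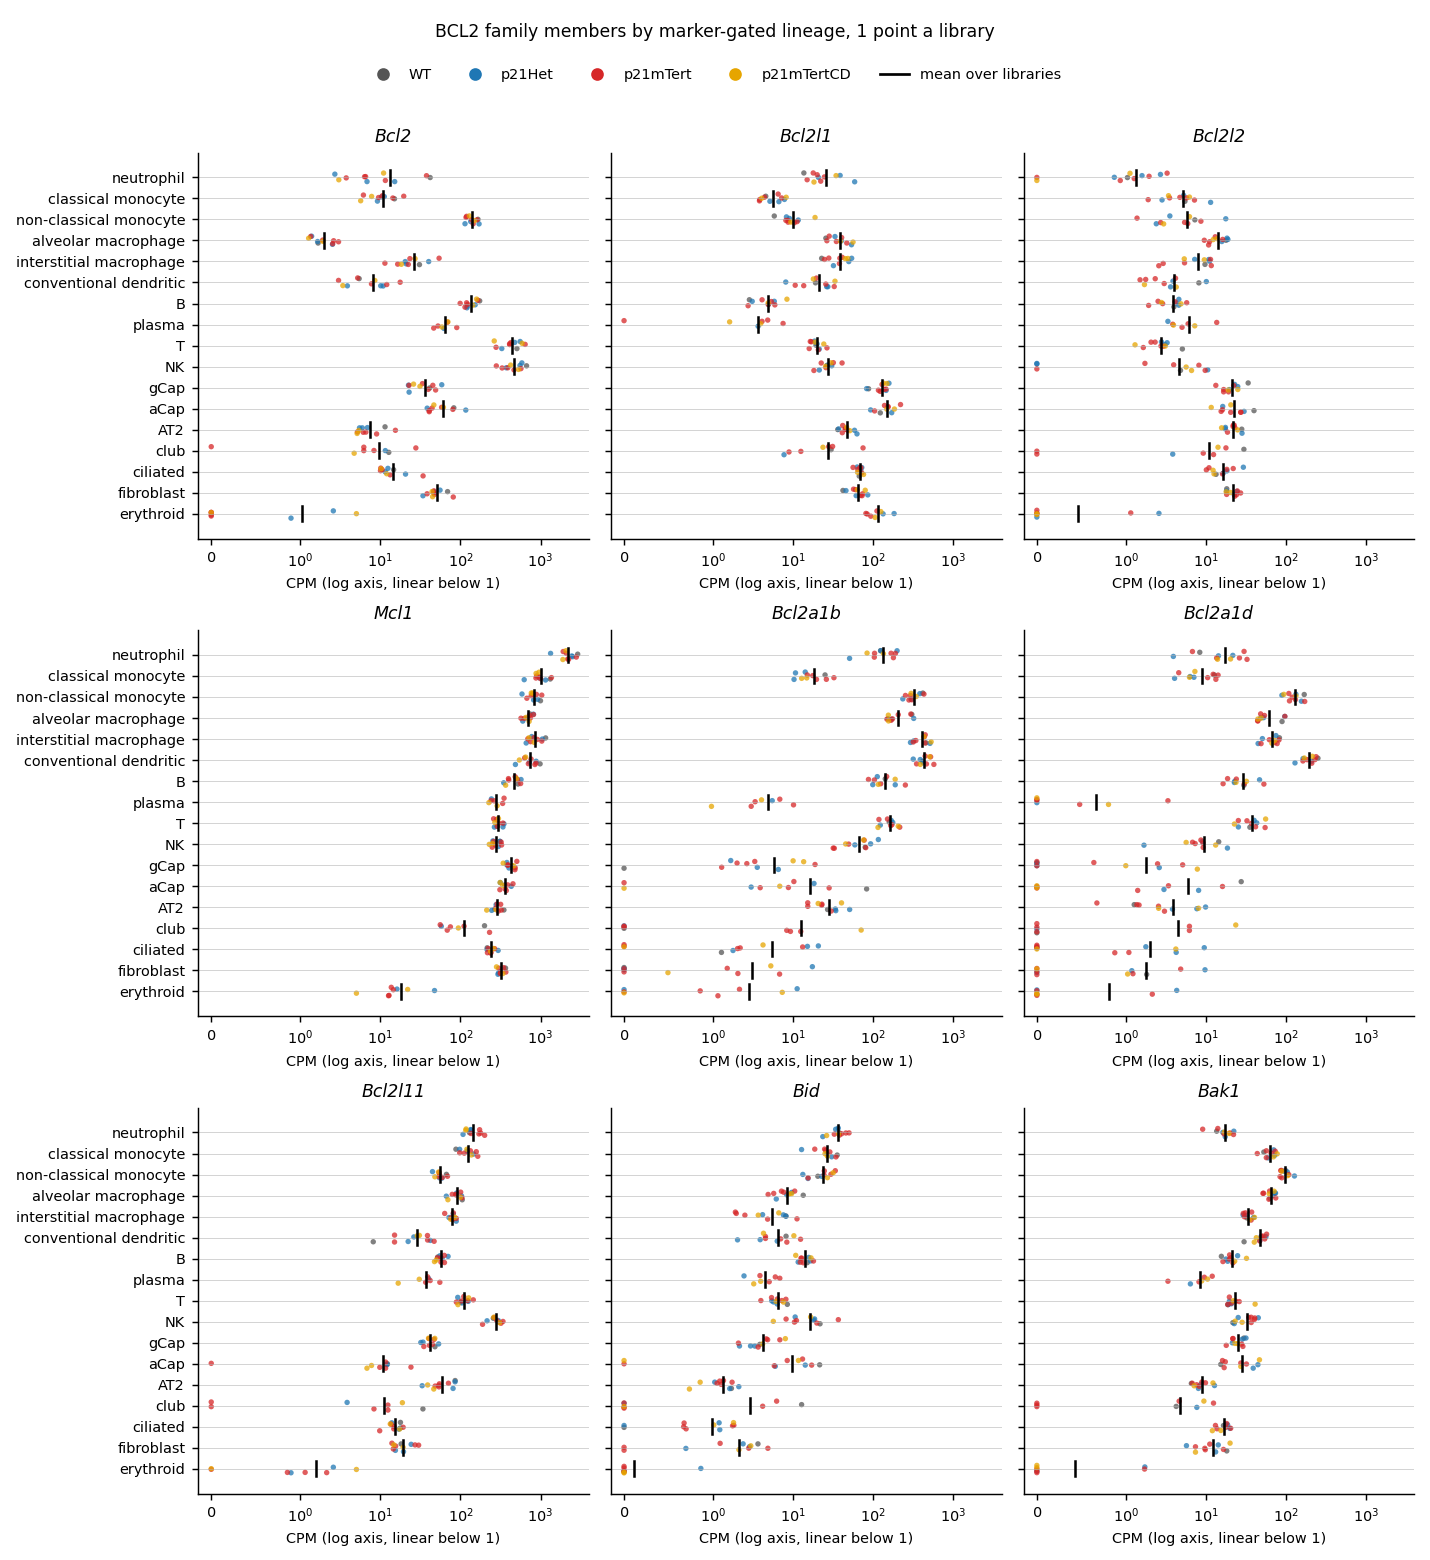
Level of each member (CPM, log axis, linear below 1) in 17 marker-gated lineages; each point is 1 library with at least 20 cells, coloured by genotype label, and bars are means over libraries. By mean, Mcl1 was highest in neutrophil-like cells, Bcl2 in NK-like and T-like cells, Bcl2l1 in endothelial and erythroid-like cells, and both Bcl2a1 genes in dendritic-like cells. For Bcl2a1b these were above interstitial macrophage-like cells in 7 of 11 libraries only.

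Of the death triggers, Bcl2l11, which encodes BIM and is known to end neutrophil and lymphocyte lives, was highest in NK-like cells (276 ± 44.7 CPM). Neutrophil-like (146 ± 30.3), classical monocyte-like (125 ± 25.3) and T-like cells (110.1 ± 17.5) came next. NK-like cells were above neutrophil-like cells in 10 of 11 libraries, while the latter 3 changed order between libraries. AT2-like cells (59.3 ± 18.6) were close to B-like cells (56.8), and aCap-like cells (10.8 ± 6.02) were the lowest lineage but the erythroid one. Bid, which caspase-8 cuts after death-receptor signals, was low throughout. Its highest means were 36.4 ± 7.59 CPM in neutrophil-like, 26.2 in classical and 23.4 in non-classical monocyte-like cells, and ciliated-like cells had 0.985.

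Bak1, the pore former, was highest in non-classical monocyte-like cells (97.4 ± 12.96 CPM) in all 11 libraries. Alveolar macrophage-like (64.7) and classical monocyte-like cells (63.3) did not differ beyond their spread. Neutrophil-like cells had 17.1 ± 3.89, the lowest of the 6 ranked myeloid lineages. AT2-like cells had 8.80.

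Profiles over the 17 lineages were compared by Pearson's r of log2(mean CPM + 1), as a description over lineages that share libraries and depth. Mcl1 ran closest among the members to Bak1 (r = 0.81), Bid (0.78) and Bcl2l11 (0.73), although the lineage with the highest mean was another for each of Mcl1, Bcl2l11 and Bak1. Bcl2l1 ran against Bid (-0.53) and Bcl2l11 (-0.48). The erythroid gate, high in Bcl2l1 and low in the other members, is among the 17 lineages, and no r without it was computed. Bcl2a1b and Bcl2a1d had r = 0.96, and the part of their near-identical transcripts in this value was not tested. Over 13079 genes, the nearest to Bcl2 were Ets1 (0.90), A630072M18Rik (0.88) and Haus3 (0.87); Ets1 is a lymphocyte transcription factor. The nearest to Bcl2l1 were Gclm (0.80), Dmtn (0.79) and Tspan8 (0.76), and Dmtn encodes a red cell skeleton protein. Mcl1 was nearest to Tbc1d14, Borcs6 and Tbc1d23 (all 0.95) and Bcl2l2 to Rbbp9 (0.95), Pomt2 (0.95) and Creld1 (0.94). Apart from its partner, Bcl2a1b was nearest to Tnf (0.92), the inflammatory cytokine, and Lcp1 (0.91), a leukocyte actin bundler, and Bcl2a1d to Arhgap11a (0.91) and Tnf (0.90). Bcl2l11 was nearest to Tatdn2 (0.92), Nfatc1 (0.92) and Ing2 (0.91), Bid to Samhd1 (0.92), Samsn1 (0.92) and Def6 (0.89), and Bak1 to Pitpna, Coro1b (both 0.97) and Glud1 (0.96).

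**Figure D2:**
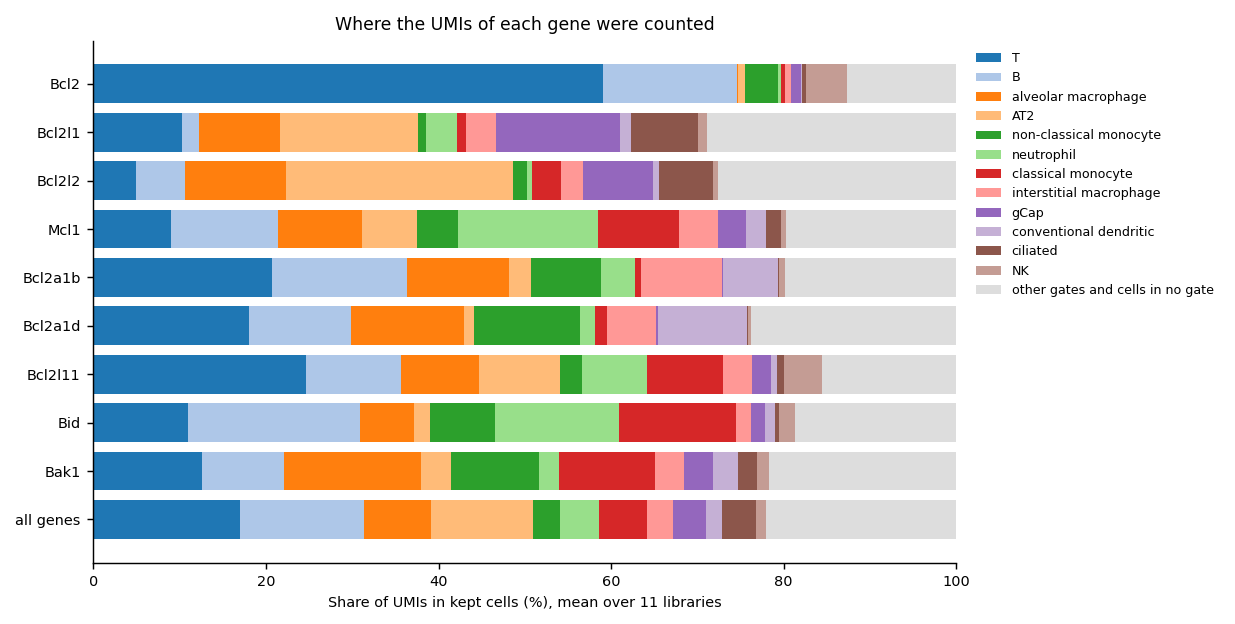
Share of each member's UMIs, and of the UMIs of all genes, that was counted in each gated lineage (stacked bars, mean over 11 libraries, %). T-like cells hold 59.1% of Bcl2 UMIs but 17.0% of all UMIs.

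In all, 11 pairs of related lineages were compared within the same libraries (edgeR quasi-likelihood test with the library as a block, TMM scaling, Benjamini-Hochberg over all genes tested). Related lineages differed in many genes, and 59.7% of all tests were called at an adjusted p under 0.05. By pair the share ran from 42.1% (NK-like against T-like) to 83.6% (neutrophil-like against classical monocyte-like). Of the member tests 59 were called, of 94 tested, so the counts stand near this background and the sizes are what is described. Relative to plain CPM, TMM moved the median of all genes by over 0.1 on the log2 scale in 8 pairs. Plain CPM minus TMM was 0.11 for non-classical and -0.22 for dendritic-like against classical monocyte-like cells, 0.18 between the macrophage lineages, 0.19 for NK-like against T-like, -0.53 for AT2-like against AT1-like and -1.26 for club-like against ciliated-like cells, with the other 2 given beside their results.

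Against classical monocyte-like cells, non-classical monocyte-like cells had more Bcl2 (140.3 against 10.9 CPM, log2 fold change 3.64, SE 0.11, adjusted p = 2.23e-18), more Bcl2a1b (4.16, SE 0.11) and more Bcl2a1d (3.78, SE 0.12), each in 11 of 11 libraries. They had less Bcl2l11 (-1.26, SE 0.08) and slightly less Mcl1 (-0.38, SE 0.05). In this pair 8 of 9 members were called beside 66.3% of all genes. Bid (-0.28, adjusted p = 0.0341) was lower in only 7 of 11 libraries, and its call was lost without WT_1, p21Het_1, p21Het_3 or p21mTert_1, with values from -0.34 to -0.21 over all libraries left out in turn. It was also lost with DESeq2 (adjusted p = 0.0828), on plain CPM (adjusted p = 0.189) and without the library block (adjusted p = 0.0807).

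Conventional dendritic-like cells showed the same A1 contrast with classical monocyte-like cells (Bcl2a1b 4.93, SE 0.11; Bcl2a1d 4.72, SE 0.12). They also had more Bcl2l1 (2.16, SE 0.21) and less Bcl2l11 (-1.86, SE 0.14) and Bid (-1.75, SE 0.19), each in 11 of 11 libraries. Of 9 members 6 were called, beside 65.2% of genes.

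Between neutrophil-like and classical monocyte-like cells all 9 members were called, beside 83.6% of genes, but the direction of Bcl2 did not hold. Bcl2a1b (3.44, SE 0.13), Bcl2l1 (2.79, SE 0.18) and Mcl1 (1.73, SE 0.08) were higher in every library, and Bak1 (-1.32, SE 0.11) and Bcl2l2 (-1.41, SE 0.36; -2.37 without the cells of highest UMI counts) lower in every library. Here plain CPM moved the median of all genes by -0.59 on the log2 scale, and the same 5 differences were 2.86, 2.16, 1.154, -1.92 and -1.99 there. Bcl2l11 (0.78, adjusted p = 8.4e-08) fell to 0.20 (adjusted p = 0.0924) on plain CPM. Bcl2 (0.62, adjusted p = 0.049) fell to 0.02 (adjusted p = 0.965) there, was not called by DESeq2 (0.52, adjusted p = 0.114), and was higher in 6 of 11 libraries only. It turned to -0.93 without the cells of highest UMI counts, a call in the other direction (adjusted p = 0.00186), and to -0.34 with the stricter gate. It also lost its call when any of WT_1, p21Het_1, p21mTert_1, p21mTert_2, p21mTert_3 or p21mTertCD_1 was left out (0.40 to 0.80 over all libraries).

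The macrophage lineages parted mainly in Bcl2. Alveolar macrophage-like cells had less of it than interstitial ones (1.99 against 25.95 CPM; -3.74, SE 0.19, adjusted p = 6.71e-12), less Bcl2a1b (-1.23, SE 0.11) and less Mcl1 (-0.45, SE 0.06; -0.27 on plain CPM). They had more Bak1 (0.73, SE 0.08) and Bcl2l2 (0.71, SE 0.15). All 5 held in 11 of 11 libraries, and 6 of 9 members were called beside 68.7% of genes. Bcl2l1 (-0.16, SE 0.09) and Bcl2l11 (-0.02, SE 0.09) did not pass the test, and both turned positive on plain CPM (0.01 and 0.16). The call of Bcl2a1d (-0.37, SE 0.10) was lost there (-0.19, adjusted p = 0.099). Interstitial cells had the higher Bcl2a1d CPM in 6 of 11 libraries only. Alveolar cells had the higher level in WT_1 (89.1 against 82.6 CPM), p21Het_1 (96.2 against 74.7) and p21mTert_1 (96.7 against 81.6), and in p21Het_2 and p21Het_3.

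Among lymphocytes, B-like cells had less Bcl2 (-1.68, SE 0.10, adjusted p = 2.03e-10), Bcl2l1 (-2.08, SE 0.11) and Bcl2l11 (-0.92, SE 0.07) than T-like cells and more Mcl1 (0.67, SE 0.05) and Bid (1.17, SE 0.09), all in 11 of 11 libraries. Of 9 members 7 were called, beside 67.5% of genes. Of these Bcl2a1d (-0.30, adjusted p = 0.0434) lost its call with any 1 of 8 libraries left out: WT_1, p21Het_1, p21Het_3, p21mTert_1, p21mTert_2, p21mTert_4, p21mTert_5 or p21mTertCD_1. It also lost it without the library block (adjusted p = 0.217) and with the stricter gate (adjusted p = 0.0725), and was -0.52 without the cells of highest UMI counts. Bcl2l2 (0.56, adjusted p = 0.0217) lost it without p21mTert_1, p21mTertCD_2 or the cells of highest UMI counts (adjusted p = 0.0659).

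Between NK-like and T-like cells Bcl2 did not pass the test (-0.10, SE 0.10; 0.09 on plain CPM). NK-like cells had more Bcl2l11 (276 against 110.1 CPM; 1.13, SE 0.07, adjusted p = 2.41e-12) and less Bcl2a1b (-1.48, SE 0.12) and Bcl2a1d (-2.21, SE 0.17) in 11 of 11 libraries. Bid (1.12, SE 0.20) and Bak1 (0.38, SE 0.13) were higher in 10 of 11. Of 9 members 6 were called beside 42.1% of genes; Bak1 lost its call (adjusted p = 0.0233) without p21mTert_2, p21mTert_3 or the filter on low counts, and Mcl1 (-0.27) lost its call on plain CPM (-0.09).

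Plasma-like cells had almost no A1: Bcl2a1b was 4.82 CPM against 157 in B-like cells of the same 7 libraries (-3.74, SE 0.18), and Bcl2a1d 0.662 against 32.2 (-5.18, SE 0.46). The plasma-like Bcl2a1d value rests on 0 to 2 UMIs per library. Its fold change ran from -6.39 to -3.96 under the alternatives run, so its size is poorly measured. In this pair plain CPM moved the median gene by -1.25 on the log2 scale. Mcl1 read 0.62 and Bcl2l11 0.61 with TMM but -0.63 for both on plain CPM, each called both ways and both below B-like cells in CPM in 7 of 7 libraries. With TMM 5 of 9 members were called, beside 57.5% of genes. The calls were of both A1 genes, Mcl1, Bcl2l11 and Bcl2l2, and Bcl2 was not among them. Bcl2l2 (1.44 to 1.91 with 1 library left out) lost its call on plain CPM (0.45, adjusted p = 0.226).

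In the vessel wall, gCap-like cells had more Bcl2l11 than aCap-like cells (42.9 against 10.8 CPM; 1.95, SE 0.20, adjusted p = 1.71e-08) in 10 of 10 libraries. They had less Bcl2 (-0.62, SE 0.12), lower in 10 of 10, though without the cells of highest UMI counts it was -0.29 (adjusted p = 0.0872) and with the stricter gate -0.36. Bcl2l1 (-0.18, SE 0.09) was not called, and 4 of 9 members were called beside 45.5% of genes. Against fibroblast-like cells, gCap-like cells had more Bcl2l1 (0.92, SE 0.08), Bcl2l11 (1.08, SE 0.11), Bak1 (1.08, SE 0.14) and Mcl1 (0.30, SE 0.07) in 11 of 11 libraries. They had less Bcl2 (-0.55, SE 0.11), lower in 9 of 11 libraries; 5 of 8 tested members were called beside 70.3% of genes.

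In the epithelium, AT2-like cells exceeded alveolar type 1 (AT1)-like cells in Bcl2a1b (22.01 against 3.77 CPM; 3.14, SE 0.50, adjusted p = 5.97e-07) in 5 of 5 libraries. The AT1-like value rests on 5 UMIs, all in p21Het_2, with 0 in the other 4 libraries. Without p21Het_2 the AT1-like cells held none, and the fitted value of 9.11 is then no measure of size. AT2-like cells also exceeded them in Bcl2l11 (1.18, SE 0.24; 0.65 on plain CPM) in 4 of 5. These were the 2 calls among 7 tested members, beside 45.6% of genes. Club-like and ciliated-like cells differed in 1 of 7, Bcl2a1b (2.82, SE 0.88, adjusted p = 0.00781), beside 43.4% of genes. That difference was positive in 4 of 8 libraries and was not called by DESeq2 (2.27, adjusted p = 0.233) or on plain CPM (1.54, adjusted p = 0.11). With the looser gate it was 4.72.

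**Figure D3:**
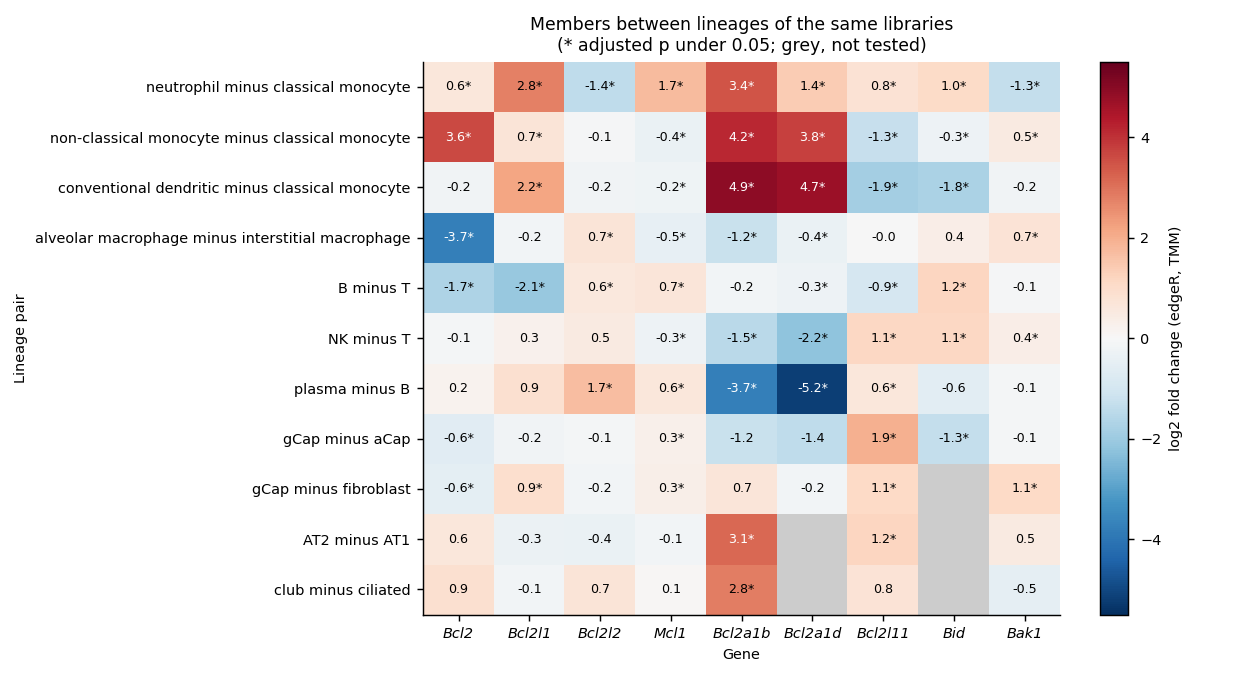
Log2 fold changes of the members (columns) between pairs of lineages of the same libraries (rows; edgeR, TMM); a star marks an adjusted p under 0.05 and grey squares were not tested. The A1 genes and Bcl2 carry the largest values, up to 4.93 for Bcl2a1b and down to -5.18 for Bcl2a1d. The latter rests on 0 to 2 UMIs per library in plasma-like cells. Of the called values, those of Mcl1 and Bcl2l11 in plasma-like against B-like cells change sign on plain CPM.

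The other 34 genes of the pathway, from BAX and further BH3-only genes to the apoptosome, the caspases and their inhibitors, are given beside the share of all genes called. Some of the pairs are given. In neutrophil-like against classical monocyte-like cells 11 of 28 tested were higher and 11 lower, beside 83.6% of all genes called, with a median log2 fold change of 0.04 beside -0.09 for all genes. In club-like against ciliated-like cells 1 of 25 was higher and 8 lower (43.4% of all genes called, median -0.10 beside -0.24). Non-classical against classical monocyte-like cells had 14 of 28 higher and 9 lower (66.3% of all genes called, 0.22 beside 0.02). For gCap-like against fibroblast-like cells 14 of 28 were higher and 6 lower (70.3% of all genes called, 0.18 beside 0.02). In alveolar against interstitial macrophage-like cells 15 of 30 were higher and 9 lower (68.7% of all genes called; median 0.20 beside 0.02). In B-like against T-like cells 12 of 30 were higher and 14 lower (67.5% of all genes called; -0.03 beside 0.02), and in gCap-like against aCap-like cells 9 of 26 were higher and 9 lower (45.5% of all genes called; -0.01 beside 0.03).

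The genotype comparisons ask whether these genes differ in level among the p21Het, p21mTert and p21mTertCD libraries. All 3 groups carry a changed p21 allele, so an effect of that allele was not tested, and the libraries labelled 19 and 20 months are in the fits. No member was called in any lineage. UMIs summed per library were compared in 15 lineages among p21Het, p21mTert and p21mTertCD (edgeR, all 3 groups in 1 fit; WT, a single library, is given as a value). Of 333 member tests 0 passed an adjusted p of 0.05, beside 0.0647% of all 398571 gene tests; with so few calls over all genes, a count of 0 among the members does not set them apart. An unadjusted p under 0.05 was found in 24, or 7.21% beside 5.70% of all tests. DESeq2 called 0 of the members' tests and 1084 of all genes' tests within lineages. For p21mTert minus p21Het 13 of 111 had such a p (11.7% beside 5.495% of all tests), for p21mTert minus p21mTertCD 9 (8.11% beside 6.54%) and for p21mTertCD minus p21Het 2 (1.80% beside 5.06%). The shares of all gene tests called in these 3 were 0.0294%, 0.0572% and 0.108%. Fewer cells of a type and less RNA per cell cannot be told apart in the sums over all cells that come next.

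Over all kept cells the members overlapped between groups with few exceptions, and 0 of 27 tests were called by edgeR or DESeq2. With edgeR 0.0457% of all gene tests were called (0.0114% for p21mTert minus p21Het, 0.00571% for p21mTert minus p21mTertCD and 0.12% for p21mTertCD minus p21Het), and DESeq2 called 31, 594 and 184 genes in these contrasts, in the same order. Of the members' tests 2 (7.41%) had an unadjusted p under 0.05 with edgeR, beside 9.86% of all tests. Both were of Bak1. The WT library had 26.4 CPM and the p21Het libraries 30.8, 34.0 and 38.3. The p21mTert libraries had 29.3, 25.98, 23.7, 27.8 and 31.0, and the p21mTertCD libraries 45.4 and 31.8. All 5 p21mTert libraries were below both p21mTertCD libraries, while 1 of them lay within the range of p21Het. Bcl2l2 did not overlap in p21mTert (8.81 to 10.8 CPM) and p21mTertCD (7.47 to 8.48) either, with an unadjusted edgeR p of 0.291. The share of all genes so separated was not computed, here or within lineages. For Bak1 the log2 fold change was -0.58 (SE 0.17, adjusted p = 0.223) for p21mTert minus p21mTertCD and -0.38 (SE 0.15, adjusted p = 0.672) for p21mTert minus p21Het. Without p21mTertCD_1 the first was -0.24 and without p21mTertCD_2 -0.90 (adjusted p = 0.0581); without p21Het_3 the second was -0.26. With 1 fixed lineage makeup in every library, the Bak1 means were 28.7 ± 2.40 in p21mTert, 32.9 ± 0.778 in p21Het and 36.1 ± 6.86 in p21mTertCD. Here and below the fixed makeup covers 13 lineages, whereas the plain levels cover all kept cells, so the 2 measures differ in more than makeup.

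Bcl2 over all cells varied more within groups than between them. WT had 165 CPM, the p21Het libraries 131, 74.4 and 105, the p21mTert libraries 201, 111, 83.5, 116 and 102, and the p21mTertCD libraries 94.3 and 202. The coefficient of variation over the 11 libraries was 35.4%, and 24.8% with the makeup of 13 lineages fixed. T-like cells made up 12.02% to 33.9% of kept cells and B-like cells 1.54% to 38.4%.

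Mcl1 averaged 625.2 ± 217 CPM in p21Het, 534 ± 101 in p21mTert and 547 ± 8.43 in p21mTertCD, with 629 in WT. Its highest library, p21Het_3 at 841, was the one with the most neutrophil-like cells, 25.03% of kept cells against 2.74% to 12.99% elsewhere. Its coefficient of variation was 21.9%, and 15.7% with the makeup fixed. Bcl2l11 varied least of the members, between 58.0 and 96.0 CPM (13.1%, or 7.48% with the makeup fixed). Bcl2l1 ranged from 22.8 to 47.8 CPM, Bcl2l2 from 7.47 to 13.8, Bcl2a1b from 88.0 to 167, Bcl2a1d from 23.9 to 44.3 and Bid from 6.57 to 14.7.

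**Figure D4:**
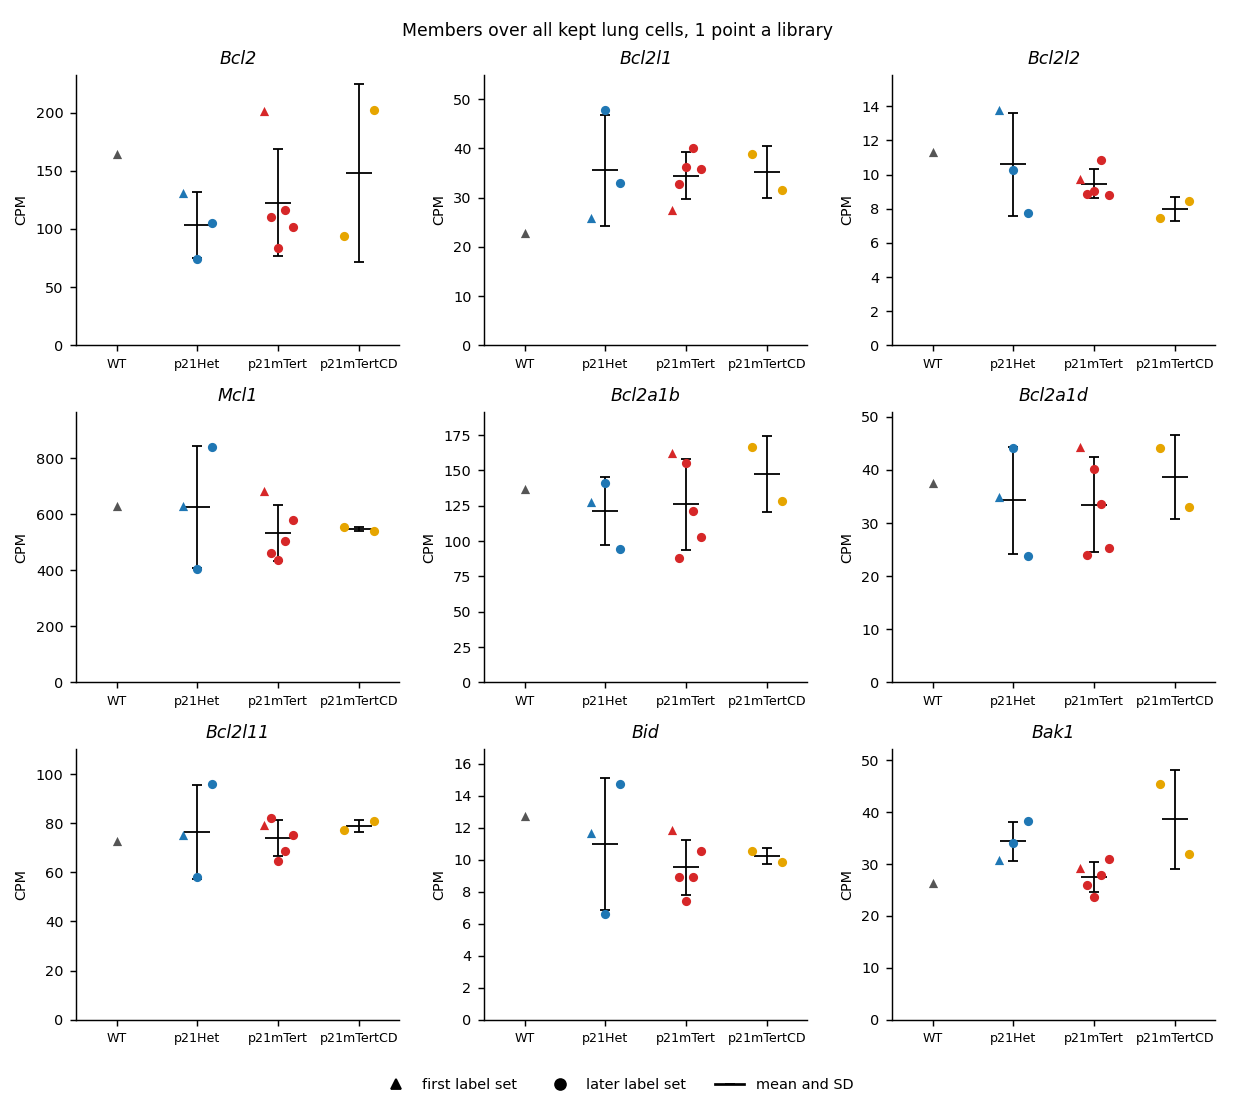
Level of each member over all kept cells (CPM), 1 point a library by genotype label, with mean and SD where a group has more than 1 library; triangles are the first label set. The groups overlap for most members, and the 5 p21mTert libraries lie between 23.7 and 31.0 CPM for Bak1.

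Within lineages, the smallest p-values for p21mTert minus p21Het fell on the A1 genes, none of them called. In AT2-like cells the 3 p21Het libraries had 33.6, 34.1 and 50.7 CPM of Bcl2a1b and the 5 p21mTert libraries 29.8, 15.2, 15.2, 22.9 and 22.7. WT had 26.9 and p21mTertCD 40.2 and 20.5. All p21mTert libraries were below all p21Het libraries (-0.88, SE 0.24, unadjusted p = 0.00336, adjusted p = 0.505). Bcl2a1d in the same cells, at 3.82 to 9.89 CPM in p21Het and 0.674 to 3.03 in p21mTert, rested on 3 to 99 UMIs per library (-1.97, SE 0.48, unadjusted p = 0.00152, adjusted p = 0.469). In this fit 0.068% of all genes were called. The order of Bcl2a1d was not particular to AT2-like cells. In ciliated-like cells it was 4.25, 9.52 and 1.78 CPM in p21Het (7, 24 and 2 UMIs) and 0 to 1.09 in p21mTert. In gCap-like cells the groups overlapped, at 0 to 2.61 CPM in p21Het and 0 to 5.12 in p21mTert.

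Macrophage markers in these AT2-like cells also differed between libraries. The summed alveolar macrophage markers stood at 1249 CPM in p21Het_2 and 961 in p21mTertCD_1 and between 34.3 and 262 in the other 9, with p21Het_1 at 128 and p21Het_3 at 79.1. The interstitial macrophage markers summed to 515 to 933 CPM in p21Het and 362 to 658 in p21mTert. Their part in the A1 difference was not tested.

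In classical monocyte-like cells Bcl2a1b lay the other way. The p21Het libraries had 10.7, 14.2 and 10.3 CPM and the p21mTert libraries 19.6, 17.6, 32.3, 25.98 and 15.02. WT had 25.02 and p21mTertCD 14.8 and 12.8. No p21mTert library overlapped p21Het (0.97, SE 0.25, unadjusted p = 0.00155, adjusted p = 0.262; 0.132% of all genes called). With the stricter gate the difference was 0.55 (adjusted p = 0.77), and without the filter on low counts it was 0.93 and called (adjusted p = 0.0127). Counts were 17 to 76 UMIs per library. Interstitial macrophage markers summed to 1994 to 4498 CPM in these p21mTert cells and 2179 to 3225 in p21Het, and conventional dendritic markers to 222 to 473 against 276 to 334; their part in the result was not tested.

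Bak1 in T-like cells had the smallest p between p21mTertCD and p21Het. The p21mTertCD libraries had 41.1 and 21.97 CPM and the p21Het libraries 20.7, 19.6 and 19.1. The p21mTert libraries had 18.7, 20.8, 19.6, 23.6 and 26.01, and WT 18.8. The library p21mTertCD_1 alone stood apart. The fold change was 0.72 (SE 0.21, unadjusted p = 0.00579, adjusted p = 0.183), and -0.59 (SE 0.19, unadjusted p = 0.00913, adjusted p = 0.277) for p21mTert minus p21mTertCD, beside 0.0738% and 0.041% of all genes called. Without p21mTertCD_1 these were 0.25 and -0.12. Without p21mTertCD_2 they were 1.08 (adjusted p = 0.00396) and -0.95 (adjusted p = 0.00462), a lone library then standing for its group. In the T-like cells of p21mTertCD_1 the alveolar macrophage markers summed to 969.9 CPM and in p21Het_2 to 899, against 17.9 to 344 elsewhere; their part in the result was not tested.

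The other pairs among the 3 smallest p-values of a contrast were not called either. Bid in non-classical monocyte-like cells was 31.6 and 26.8 CPM in p21mTertCD against 15.3, 13.2 and 22.8 in p21Het (0.84, SE 0.32, adjusted p = 0.615; 0.415% of all genes called). Bcl2a1b in interstitial macrophage-like cells averaged 479 against 374 CPM for the same contrast (0.46, SE 0.23, unadjusted p = 0.074; 0.011% of all genes called), with 0.71 without p21Het_1 and 0.30 without p21Het_3. For p21mTert minus p21mTertCD they were Bcl2a1d in AT2-like cells (-1.59, SE 0.57, adjusted p = 0.61; 0.0425% of all genes called; -0.50 without p21mTertCD_1) and Bcl2 in classical monocyte-like cells (12.04 against 6.73 CPM; 0.83, SE 0.33, adjusted p = 0.709; 0.154% of all genes called).

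**Figure D5:**
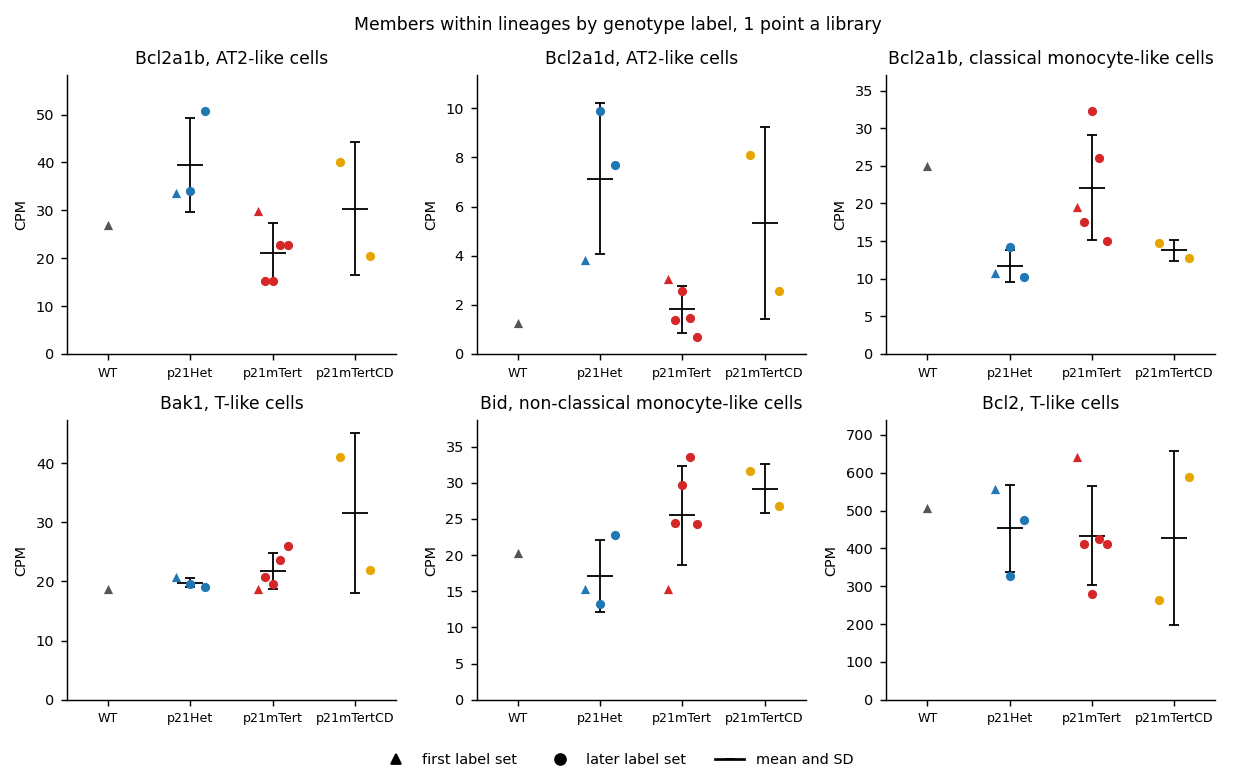
Levels of members within lineages (CPM) by genotype label, 1 point a library, with mean and SD; triangles are the first label set. The p21mTert libraries lie below p21Het for both Bcl2a1 genes in AT2-like cells and above it for Bcl2a1b in classical monocyte-like cells. For Bak1 in T-like cells 1 p21mTertCD library stands at 41.1 CPM. None of these was called, and the share of all genes so separated was not computed.

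Of 1143 tests of the pathway genes within lineages 0 were called by edgeR, with 76 (6.65%) at an unadjusted p under 0.05, beside 5.70% of all tests. DESeq2 called 3 of them, beside 1084 tests of all genes. Over all cells 0 of 102 were called by edgeR, with 7 (6.86%) at an unadjusted p under 0.05, beside 9.86% of all tests. DESeq2 called 0 of these, beside 809 tests of all genes. For p21mTert minus p21Het in gCap-like cells the fit was also run on simulated counts, with genes changed in p21mTert alone. It recovered 74 of 100 genes changed by 1 on the log2 scale and 97 of 100 changed by 2. There were 7 false calls among 10126 genes. The simulated counts held no shift by label set, and contrasts with p21mTertCD, other lineages and sparse members were not covered.

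Values also differed by label set. With at least 3 libraries on both sides in 14 lineages, the first label set lay wholly above the others in 16 of 92 member and lineage pairs with a mean of at least 10 CPM, beside 8.45% of such pairs over all genes. It lay wholly below in 4 of 92, beside 2.31%. Bcl2 was above in 7 of 14 lineages (all levels counted), among them NK-like cells (569 to 669 CPM against 280.4 to 554) and fibroblast-like cells (55.6 to 81.3 against 34.0 to 47.4). Mcl1 was above in all of neutrophil-like, classical and non-classical monocyte-like, interstitial macrophage-like and conventional dendritic-like cells. Bcl2a1b in alveolar macrophage-like cells was 294 to 320 CPM against 148 to 205. Bcl2l1 went the other way in gCap-like cells (82.7 to 116 against 122 to 157) and fibroblast-like cells. Each label set holds p21Het and p21mTert libraries, but WT is in the first alone, both p21mTertCD libraries are in the later alone, and the libraries labelled 19 and 20 months are in the first. The label set is thus unbalanced for contrasts with p21mTertCD. It is also uneven for p21mTert minus p21Het, as the first set holds 1 of 3 p21Het and 1 of 5 p21mTert libraries. No member was called by genotype with the label set as a term or in the later set alone.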

How the data were processed

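The deposited matrices hold raw counts of UMIs per gene and barcode. Per the submitters' processing notes, Cell Ranger made these counts on the mm10 build; its version is not given here because the labels and the file headers differ. The cell thresholds follow the labels' protocols; the other steps were computed here. A cell took the lineage with the most of its 8 markers detected if it had at least 3 and at least 2 more than any other; this rule was set after gate yields, not member levels, were seen. No doublet caller was run: the margin was meant to leave out mixed cells, which was not tested, and 49.8% of conventional dendritic-like, 54.7% of erythroid-like and 60.7% of club-like cells lay at the cut. Library pairs shared few barcodes (at most 0.32% of the smaller). Libraries with under 20 cells of a lineage were left out. UMIs were summed per library and tested with edgeR 4.0.16 (TMM, filterByExpr) in R 4.3.3; DESeq2 1.42.0 was the alternative. Members, gene lists and markers were chosen with earlier results of these data known. Named genotype results are the 3 smallest p-values per contrast. Replicate numbers did not pair libraries. Positions are GENCODE M21 and RefSeq on GRCm38. Python 3.11.15, numpy 2.4.6, pandas 2.3.3, matplotlib 3.10.9 and Biopython 1.88 were used.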

Additional observations from a re-analysis of the deposited data

Results flagged for a closer look

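In the 5 p21mTert libraries, Bcl2 over all kept cells had 1 value far from the rest: p21mTert_1 stood at 201 CPM, against 83.5 to 116 in the other 4. Chance alone flags about 1 in 20 groups, and 16 groups of values were examined. The library belongs to the first label set; its T-like cells also had the highest Bcl2 level of the 11 libraries, 642 CPM, and they made up 21.6% of its cells. With the lineage makeup fixed it was 182 CPM, against 84.5 to 119 in the other 4. The part of the label set in this value was not tested.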

How the results depend on the processing

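The count of member calls by genotype within lineages was 0 under 18 of 20 alternatives. It was 4 without the filter on low counts (Bcl2l1 in neutrophil-like, Bcl2a1b in classical monocyte-like, and Bcl2a1b and Bcl2a1d in ciliated-like cells, all p21mTert minus p21Het) and 0 to 2 with 1 library left out, the 2 being Bak1 in T-like cells without p21mTertCD_2. Bcl2a1d in ciliated-like cells rested on 0 to 3 UMIs per p21mTert library and on 7, 24 and 2 in the p21Het libraries, so that call lies near the floor. Over all kept cells the count of member calls was 0 under every alternative run. The pathway count was 3 with DESeq2, 6 without the filter, 0 to 16 with 1 library left out (16 without p21mTertCD_2) and otherwise 0. With the replicate number as a block 0 members and 0 pathway genes were called; same-numbered libraries correlated between -0.50 and 0.17 in their deviations, so the block gives no paired result. Under that block Bcl2 in classical monocyte-like cells went from 0.83 to 0.062 for p21mTert minus p21mTertCD, Bak1 in T-like cells to -0.12 for that contrast and 0.16 for p21mTertCD minus p21Het, Bak1 over all cells to -0.22 for p21mTert minus p21mTertCD, and Bcl2a1b in interstitial macrophage-like cells from 0.46 to 0.74, none called. Under it Bcl2a1d in AT2-like cells turned from -1.59 to 0.015 for p21mTert minus p21mTertCD, and Bak1 over all cells for p21mTertCD minus p21Het to -0.18; with 1 library left out the latter ranged from -0.14 (without p21mTertCD_1) to 0.50 (without p21mTertCD_2).

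The 59 calls between lineages were 56 to 67 under the alternatives run (67 with the looser gate), and 57 without the replicate block, here the library. Of the 59, 46 kept direction and call throughout. Bcl2 in neutrophil-like against classical monocyte-like cells turned to -0.93 without the cells of highest UMI counts (adjusted p = 0.00186, a call the other way) and to -0.34 with the stricter gate; the cause was not tested. In plasma-like against B-like cells, plain CPM, chosen after seeing the data, gave -0.63 for Mcl1 and for Bcl2l11. Depth limits the sparse members: Bid had 0 to 3 UMIs per library in AT1-like cells.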
